A study of Mus musculus with 4 samples.

Results

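The nuclear-encoded genes of the mitochondrial respiratory chain and ATP synthase were examined in RNA-seq counts of mouse T-helper 2 (Th2) cells. Members were the nuclear protein-coding genes whose GENCODE mouse symbol begins with Nduf, Sdha, Sdhb, Sdhc, Sdhd, Uqcr, Cox4, Cox5, Cox6, Cox7, Cox8 or Atp5, together with Atpif1. This rule used no measured value and found 98 of the 50600 annotated genes. By the complex they belong to or help to build, 7 were core subunits of complex I, 31 accessory subunits of complex I, 8 assembly factors of complex I, 8 genes of complex II, 8 of complex III, 18 of complex IV and 18 of complex V.

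Complexes I and II pass electrons from NADH and succinate to ubiquinone, complex III passes them on to cytochrome c, and complex IV reduces oxygen. Complexes I, III and IV pump protons across the inner mitochondrial membrane, and complex V, the ATP synthase, uses that gradient to make ATP. Most subunits are encoded in the nucleus and imported, while a few core subunits are encoded in mitochondrial DNA and are not described here. Activated T cells are known to enlarge their mitochondrial mass and to raise both glycolysis and respiration when they divide and acquire effector function.

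The data were 4 RNA-seq libraries of primary Th2 cells of mouse strain C57BL/6NJ, the CD4 T cell type known for the cytokines of allergic and anti-parasite immunity. The cells were differentiated in culture per the protocol title in the labels, while the file headers name a 72 h time and a sort. By its label the assay is total RNA-seq, whereas the library protocol they link to is titled for poly(A) RNA, and which of these applies is not known here. All 4 form 1 group with no treatment, mutation or control. The labels number them as biological replicates 1 to 4 with a biosample each and 1 donor record for all, give no sex or age, and do not say whether separate animals were used, so the spread between libraries may be partly technical.

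Replicates 1 to 4 held 1780682, 1857433, 1446040 and 1274431 gene counts. At that depth 3 counts, the limit that a count of 0 allows, equal 1.62 to 2.35 CPM (counts per 1000000 of the library total). All 9 T cell identity genes checked had counts in every library, with a median of 26.4 ± 23.2 TPM (SD, n = 4), and so did 8 of 10 Th2 genes, with a median of 14.1 ± 8.26 TPM. TPM is the count per exon length scaled to a sum of 1000000 per library. Of the B cell markers 3 of 5 had no count in any library, with summed counts of 36, 41, 9 and 2 in replicates 1 to 4, nearly all of them Cd79a. Of the myeloid markers 4 of 6, Lyz2, Itgam, Adgre1 and S100a8, had no count. The list's summed counts were 732, 838, 694 and 542, from Cd68 and from Csf1r. Csf1r averaged 131 ± 5.35 TPM, above each of the T cell identity and Th2 genes checked. It has an opposite exon as defined in the next paragraph, and so have 2 of the T cell identity genes and 5 of the Th2 genes. The part of B cells or myeloid cells in the results below was not tested.

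The counts are own-strand counts, made with the strand option at 1 per the file headers. Whether that option matches the orientation of the library kit was not tested, so the levels below are own-strand counts of annotated genes and are not taken as mRNA levels. In such bulk counts fewer cells of a type and less RNA per cell cannot be told apart. Members were therefore also given in 2 classes in several results below. The order of complexes, the gene lists and the tests pooled both classes. An opposite exon, meaning at least 1 bp of exon shared with a gene on the other strand, was present in 28 members and absent in 70. That was 28.6% of the members, against 22.1% of the 21751 nuclear protein-coding genes. Of all 50600 genes, 42411 had no opposite exon. They held 292314 of 1780682 counts in replicate 1 and 158636 of 1857433 in replicate 2. In replicates 3 and 4 they held 132116 of 1446040 and 256648 of 1274431 counts. What these values mean for the strand option was not tested.

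Promoter sequence was looked at first, since many respiratory chain genes are known targets of NRF1, of the ETS factor GABP and of YY1. A RefSeq promoter (GRCm38.p6, the assembly also called mm10), running from 250 bases before a gene's start to 50 after it, was found for 80 of the 98 members, in 85 windows. The letters of an NRF1 site, GCGCA followed by any base and GCGC, were present on either strand in 25.9% of the members' windows, against 6.38% of 21262 windows of protein-coding genes and 4.60% of all 32851 windows. The ETS letters CCGGAAG were present in 24.7% of the members' windows, against 11.6% of coding and 8.86% of all windows. The YY1 letters AAGATGGC were present in 12.9% of the members' windows, against 3.05% of coding and 2.75% of all windows. GC-box letters GGGCGG stood in 47.1% of the members' windows, against 46.2% of coding windows, and TATAAA in 10.6% against 12.6%. The only matches of these motifs that overlapped were an ETS and a GC-box match, in 1 window. These shares describe letters, not bound sites.

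By class, the NRF1 letters were present in 2 of 18 matched members with an opposite exon and in 19 of 62 without one, the ETS letters in 5 of 18 and 16 of 62, and the YY1 letters in 4 of 18 and 7 of 62. Windows of 6 members, chosen after their motifs and values were seen to show each motif and each complex, are printed 5′ to 3′ in the direction of the gene, with NRF1, ETS and YY1 matches in capitals. They lie at chr13:73328433-73328732 for Ndufs6, chr13:74350191-74350490 for Sdha, chr4:116075021-116075320 for Uqcrh, chr5:115348909-115349208 for Cox6a1, chr16:84834927-84835226 for Atp5j and chr3:105959214-105959513 for Atp5f1, all on the minus strand.
Ndufs6: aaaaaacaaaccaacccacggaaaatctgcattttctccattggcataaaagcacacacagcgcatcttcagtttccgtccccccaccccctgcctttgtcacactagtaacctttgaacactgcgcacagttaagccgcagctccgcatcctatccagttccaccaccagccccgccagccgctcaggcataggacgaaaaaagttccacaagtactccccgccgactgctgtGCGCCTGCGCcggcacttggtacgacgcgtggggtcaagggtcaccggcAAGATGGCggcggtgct
Sdha: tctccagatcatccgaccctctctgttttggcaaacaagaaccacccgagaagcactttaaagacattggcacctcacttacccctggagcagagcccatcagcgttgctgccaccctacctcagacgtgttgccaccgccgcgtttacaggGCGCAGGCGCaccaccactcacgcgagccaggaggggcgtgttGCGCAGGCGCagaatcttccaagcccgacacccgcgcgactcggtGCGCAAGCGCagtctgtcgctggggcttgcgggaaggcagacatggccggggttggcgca
Uqcrh: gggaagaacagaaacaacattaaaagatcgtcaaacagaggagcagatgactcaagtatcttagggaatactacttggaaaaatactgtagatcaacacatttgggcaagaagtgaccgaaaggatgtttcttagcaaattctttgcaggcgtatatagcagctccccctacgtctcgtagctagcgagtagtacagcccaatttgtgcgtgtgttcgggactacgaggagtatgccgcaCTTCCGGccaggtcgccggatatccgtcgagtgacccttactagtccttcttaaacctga
Cox6a1: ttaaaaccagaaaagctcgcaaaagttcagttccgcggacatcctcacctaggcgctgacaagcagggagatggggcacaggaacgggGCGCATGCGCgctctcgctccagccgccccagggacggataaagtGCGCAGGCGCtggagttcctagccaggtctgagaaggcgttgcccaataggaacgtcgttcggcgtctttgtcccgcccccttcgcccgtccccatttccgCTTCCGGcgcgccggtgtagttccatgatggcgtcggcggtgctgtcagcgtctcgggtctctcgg
Atp5j: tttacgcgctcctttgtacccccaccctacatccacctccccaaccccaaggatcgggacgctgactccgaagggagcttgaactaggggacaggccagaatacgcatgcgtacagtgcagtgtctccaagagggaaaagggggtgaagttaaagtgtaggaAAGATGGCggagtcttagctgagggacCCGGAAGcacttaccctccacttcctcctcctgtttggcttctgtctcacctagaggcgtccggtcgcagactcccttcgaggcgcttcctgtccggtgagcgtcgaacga
Atp5f1: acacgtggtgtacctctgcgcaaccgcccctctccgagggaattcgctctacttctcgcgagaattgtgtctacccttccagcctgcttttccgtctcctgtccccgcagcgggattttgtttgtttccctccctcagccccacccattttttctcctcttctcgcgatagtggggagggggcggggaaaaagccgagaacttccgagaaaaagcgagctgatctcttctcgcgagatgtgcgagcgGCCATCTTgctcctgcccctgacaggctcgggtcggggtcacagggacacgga

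Sdha, the flavoprotein subunit of complex II, carried 3 NRF1 matches, and Cox6a1, a small subunit of complex IV, carried 2 NRF1 matches and 1 ETS match. Ndufs6, a zinc-binding accessory subunit of complex I, had 1 NRF1 match and a YY1 match that begins 34 bases after the start. Uqcrh, the hinge protein of complex III, had 1 ETS match, and Atp5j, coupling factor 6 of the ATP synthase stalk, had 1 ETS and 1 YY1 match. Atp5f1, subunit b of the same stalk, had 1 YY1 match. Atp5j and Atp5f1 have an opposite exon at this end and the other 4 members have none.

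Together the 98 members took up 0.244% of the library in replicate 1, with a Wilson 95% interval of 0.237% to 0.251%, and 0.333% in replicate 4, with 0.323% to 0.343%. They took up 0.137% in replicate 2, with 0.132% to 0.142%, and 0.130% in replicate 3, with 0.124% to 0.136%. The mean was 0.211% ± 0.0968 (SD, n = 4), and intervals cover counting error only. Replicates 1 and 4 were thus the higher libraries and replicates 2 and 3 the lower, and the intervals of the higher pair did not meet those of the lower pair. Lists outside the respiratory chain were also higher in replicates 1 and 4: the median TPM in replicates 1 to 4 was 31.4, 10.3, 6.78 and 57.3 for T cell identity genes, 17.1, 7.12, 7.80 and 24.4 for Th2 genes and 12.04, 3.10, 2.15 and 11.4 for TCA cycle genes.

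The 2 classes did not move by the same amount between libraries. Members with an opposite exon held 0.109%, 0.0945%, 0.0815% and 0.139% of counts in replicates 1 to 4, and the 70 members with none held 0.136%, 0.0425%, 0.0481% and 0.194%. In replicates 2 and 3 the smaller class of 28 therefore held more counts than the larger one, while in replicates 1 and 4 it held fewer. Much of its total lay in a few genes. Atp5f1, Cox6c, Atp5j and Ndufaf3 held 617, 253, 225 and 178 of its 1756 counts in replicate 2. They held 416, 129, 146 and 121 of 1179 in replicate 3. The median TPM in replicates 1 to 4 was 17.7, 4.94, 4.13 and 26.7 for the 28 members. It was 12.7, 3.09, 4.10 and 18.3 for the 70, so both medians were higher in replicates 1 and 4. Genes without an opposite exon as a whole were unequal between libraries too, by the counts and totals given above with the classes. Set against the counts of all 42411 such genes in the same library, the 70 members held 0.825%, 0.497%, 0.527% and 0.963%. These shares still differed between libraries. How much of the replicate pattern lies in the members and how much in this class of genes was not tested.

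**Figure D1:**
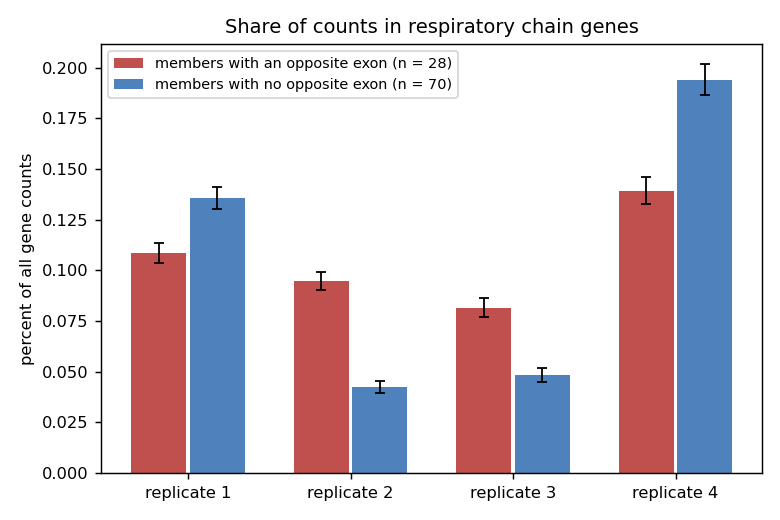
Percent of all gene counts (vertical axis) held by the 28 members with an opposite exon (red) and the 70 members without one (blue) in each library; error bars are Wilson 95% intervals. The blue bars range from 0.0425% in replicate 2 to 0.194% in replicate 4, and the red bars from 0.0815% in replicate 3 to 0.139% in replicate 4.

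Of the 98 members, 71 had a count in every library, 22 in some and 5 in none. The 5 with no count were Cox6a2, Cox7b2, Cox8b and Cox8c, isoforms known from muscle, fat or testis, and Sdhaf3, a complex II assembly factor. A mean TPM of at least 1 was reached by 89 members, against 8371 of the 21751 nuclear protein-coding genes. In short genes that level can rest on few counts, as in Sdhaf4, with 1.76 TPM from 5 counts in replicate 4. A mean count of at least 10 was reached by 67 members and by 6064 of those protein-coding genes. The median TPM over all 98 members was 14.3, 3.57, 4.10 and 22.9 in replicates 1 to 4, a mean of 11.2 ± 9.21, while the median of all nuclear protein-coding genes was 0 in each library and that of the 7752 genes averaging 10 counts or more was 9.62 ± 3.84 TPM. Replicate 4 had the highest and replicate 2 the lowest of the members' medians. Without replicate 4 the members' median was 7.33 TPM.

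By complex, the mean over libraries of the median TPM was 18.5 ± 13.2 for complex V, 15.1 ± 12.4 for complex III, 14.6 ± 13.9 for complex IV, 13.9 ± 14.1 for complex I core, 9.18 ± 6.48 for complex I accessory, 5.32 ± 4.95 for complex II and 2.15 ± 2.49 for complex I assembly. Neighbours in this order differed by less than the larger of their SDs. The share of genes with an opposite exon ran from 12.5% in complex I assembly to 42.9% in complex I core. The part of that share in the order was not tested. Complex II here includes its assembly factors, whereas those of complex I form a group of their own. Sdhaf1, Sdhaf2, Sdhaf3 and Sdhaf4 averaged 12.8, 2.94, 0 and 1.76 TPM. The subunits Sdha, Sdhb, Sdhc and Sdhd averaged 12.5, 11.3, 4.03 and 11.5 TPM. The place of complex II in this order therefore depends on the grouping. Without replicate 4 the medians were 10.03 TPM for complex III, 8.35 for complex IV, 7.54 for complex I core, 3.24 for complex II and 1.32 for complex I assembly, each lower by over 1.5 times. Members with an opposite exon had a median of 13.4 ± 10.8 TPM and members without one 9.56 ± 7.28 TPM, whereas protein-coding genes with an opposite exon had a median of 2.29 ± 0.943 TPM and those without one a median of 0.

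**Figure D2:**
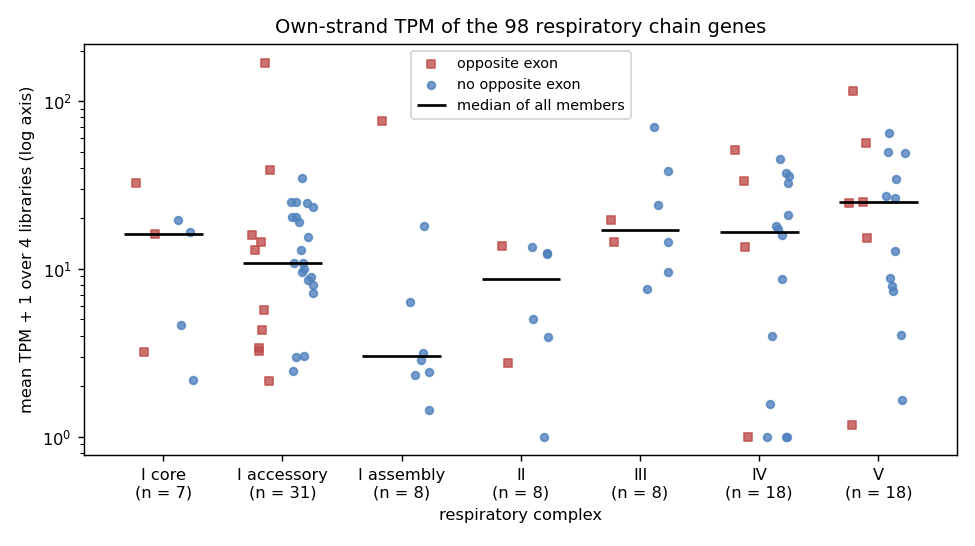
Mean TPM + 1 over 4 libraries on a log axis for each of the 98 members, grouped by complex, with squares for members that have an opposite exon, circles for members that have none and a bar at the median of the group. Values run from 0 TPM for 5 members to 168 TPM for Ndufa2.

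Among the core subunits of complex I, Ndufs8, which carries iron-sulfur clusters that lead electrons towards ubiquinone, had 24.0, 3.15, 8.25 and 38.4 TPM in replicates 1 to 4. Ndufv2, an iron-sulfur subunit beside the NADH site, had 16.3, 5.71, 6.49 and 34.1 TPM, and Ndufv1, which binds NADH and the flavin, had 4.07, 0.902, 3.15 and 6.36 TPM. All 3 lack an opposite exon and were lower in replicates 2 and 3 than in replicates 1 and 4. Ndufs3, which lies in the module that reduces ubiquinone, has an opposite exon. It had 38.1, 26.4, 27.8 and 32.8 TPM, a mean of 31.3 ± 5.28, the narrowest relative spread of the 7 core subunits. Ndufs1 averaged 2.20 ± 1.77 TPM and Ndufs7, with counts of 1, 3, 5 and 0, averaged 1.18 ± 1.27 TPM.

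Accessory subunits surround the core of complex I and are needed to build and hold it. Ndufa2, an accessory subunit of the NADH-oxidising module, had the highest TPM of all members, with 146, 187, 146 and 194 TPM and a mean of 168 ± 25.8. Its opposite exon shares 60 bp with Tmco6. Ndufb11, a membrane-arm subunit encoded on the X chromosome with Rbm10 on the other strand, had 61.2, 25.9, 40.5 and 23.1 TPM, and here replicate 4 was the lowest library.

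Of the accessory subunits without an opposite exon, Ndufv3, another part of the NADH-oxidising module, had 44.95, 32.0, 18.7 and 38.6 TPM. Ndufs6 had 27.2, 10.8, 12.6 and 45.1 TPM. Ndufa4, which carries a complex I symbol but is known as a subunit of complex IV, had 30.9, 4.39, 2.16 and 58.1 TPM. The 31 accessory genes ranged from 1.15 TPM on average for Ndufa4l2 to 168 TPM for Ndufa2, and Ndufb4 had counts in replicate 1 only (8, 0, 0 and 0).

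The 8 assembly factors of complex I were mostly sparse, with 5 lacking any count in replicates 2 and 3. Ndufaf2, a relative of the subunit Ndufa12, had 20.1, 1.12, 16.1 and 30.9 TPM. Ndufaf1, part of the machinery that builds the membrane arm, had 11.95, 3.03, 1.32 and 4.93 TPM, so replicate 1 stood highest. Ndufaf5, which modifies Ndufs7 during assembly, had counts of 8, 0, 0 and 7. Ndufaf3, an early assembly factor, was different in level and spread, with 74.4, 74.3, 66.2 and 84.9 TPM and a mean of 74.96 ± 7.68. It is the only one of these 8 with an opposite exon, sharing 48 bp with Impdh2, an enzyme of guanine nucleotide synthesis.

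In complex II, Sdha had 14.3, 6.05, 4.35 and 25.4 TPM. Sdhb, its iron-sulfur partner, had 11.8, 5.75, 6.21 and 21.5 TPM, and Sdhd, a membrane anchor, had 11.1, 1.85, 0.807 and 32.1 TPM. In these 3 genes replicate 4 was highest and replicate 1 next. Sdhc, the other anchor, averaged 4.03 ± 5.27 TPM. Sdhaf1, which helps to insert iron-sulfur clusters into Sdhb, had 17.2, 8.52, 13.96 and 11.4 TPM, with replicate 1 highest. Sdhaf4, which acts in joining Sdha to Sdhb, was counted in replicate 4 only, with 5 counts. Sdhaf1 and Sdhaf4 have an opposite exon.

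In complex III, Uqcrh had the highest level, with 80.8, 24.5, 25.7 and 147 TPM and a mean of 69.4 ± 57.8. Uqcr10, a small subunit, had 70.2, 9.08, 6.80 and 63.4 TPM, and Uqcrfs1, the Rieske iron-sulfur protein, had 36.4, 2.22, 24.0 and 29.9 TPM. Replicates 1 and 4 were the higher pair in each, and replicate 3 came close to them only for Uqcrfs1. With an opposite exon, Uqcrc2, a core protein, had 18.4, 5.35, 3.50 and 47.4 TPM. Uqcrb, which lies near the ubiquinone site and also has an opposite exon, had 17.6, 1.73, 3.40 and 31.0 TPM.

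In complex IV, Cox7b had 52.1, 16.2, 23.7 and 85.3 TPM, Cox6a1 had 39.0, 19.4, 4.24 and 82.6 TPM, and Cox6b1 had 54.3, 15.0, 9.82 and 59.2 TPM. These small nuclear subunits surround the mitochondrially encoded core of cytochrome c oxidase. Cox4i1, the regulatory subunit that can bind ATP, had 53.5, 8.80, 10.9 and 56.5 TPM, and its opposite exon belongs to Emc8. Cox6c, with Vps13b on the other strand, had 32.6, 53.8, 35.9 and 78.1 TPM, and in it replicate 1 was the lowest library. Cox5a had 5.69, 1.44, 3.31 and 39.3 TPM, so replicate 4 stood far above the other 3.

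In complex V, Atp5b, the catalytic beta subunit, had counts of 379, 106, 97 and 462, or 76.4, 19.0, 22.7 and 134 TPM. Atp5a1, the alpha subunit, had 56.7, 16.9, 19.3 and 98.4 TPM, and in both subunits replicate 4 was highest and replicate 1 next. Atp5mpl, a small proteolipid of the membrane part, had 37.5, 4.15, 24.5 and 128 TPM from at most 38 counts a library. None of the 3 has an opposite exon. Atp5f1 and Atp5j, which do, were much more even. Atp5f1 had 540, 617, 416 and 426 counts, or 112, 114, 101 and 128 TPM, and Atp5j had 207, 225, 146 and 163 counts, or 56.5, 54.5, 46.3 and 64.2 TPM.

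Atp5g1, Atp5g2 and Atp5g3 encode the same mature subunit c of the rotor ring. They averaged 0.647 ± 0.572, 7.83 ± 8.27 and 11.8 ± 5.93 TPM, and Atp5g2 had 10.2, 2.71, 0 and 18.4 TPM. Atpif1, the inhibitor that blocks ATP hydrolysis by the synthase, had 38.0, 6.31, 8.96 and 41.9 TPM, with replicates 1 and 4 above the others.

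The relative spread of CPM between libraries was compared by the coefficient of variation over genes averaging 10 counts or more. Its median was 57.3% in the 22 such members with an opposite exon and 76.1% in the 45 without one, and 35.5% and 71.9% in all nuclear protein-coding genes of these classes, so the difference between classes is general. The 6 most even of the 67 members with a mean count of at least 10, chosen after their values were seen, were Ndufaf3 (7.21%), Atp5f1 (7.23%), Atp5j (9.82%), Ndufs3 (13.4%), Ndufa2 (15.3%) and Sdhaf1 (27.5%), and all 6 have one. Next came Ndufv3 without one, at 30.8%. The widest with an opposite exon was Cox5a at 142%, and without one Sdhc at 128%. Ndufb5, among the 5 of widest range of log2(CPM + 1), has an opposite exon shared with Mrpl47 and had 2.22, 0.910, 0 and 10.1 TPM.

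Across libraries, 60 of the 93 members with any count had their highest CPM in replicate 4 and 28 in replicate 1, with 4 and 1 highest in replicates 2 and 3. Of the 12172 nuclear protein-coding genes with a count, 44.9% were highest in replicate 4 and 29.3% in replicate 1, with 12.2% and 13.6% in replicates 2 and 3. The lowest CPM was in replicate 2 for 41 members, in replicate 3 for 34, in replicate 4 for 3 and in replicate 1 for 2, the others being tied, while 24.4%, 30.7%, 12.1% and 8.11% of those protein-coding genes were lowest in these libraries. Over all 98 members the median deviation of log2(CPM + 1) from a gene's own mean was 0.53, -0.72, -0.67 and 0.96 in replicates 1 to 4, against 0.23, -0.23, -0.20 and 0.35 over the 7752 genes that average 10 counts or more. Of those 7752 genes 50.6% have an opposite exon, against 28.6% of the members, and the members had no count minimum here. The 2 sets are thus unlike, and the part of class in this difference was not tested.

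**Figure D3:**
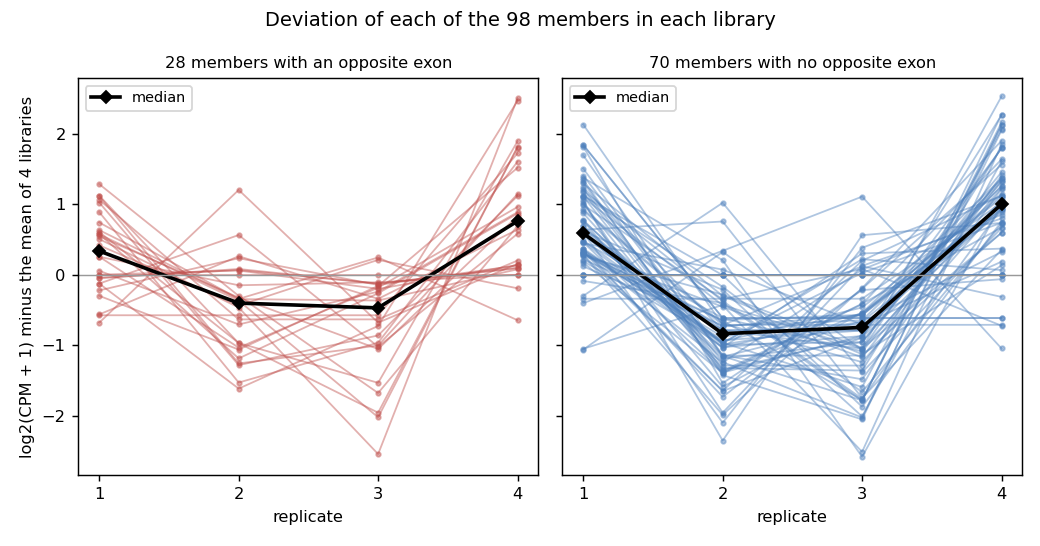
Deviation of log2(CPM + 1) from the gene's mean over 4 libraries (vertical axis) by replicate for the 28 members with an opposite exon (left) and the 70 without one (right); each thin line joins the values of 1 gene and the black line joins the medians. The medians are 0.34, -0.40, -0.47 and 0.76 on the left and 0.59, -0.84, -0.75 and 1.00 on the right, and replicate order carries no meaning.

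Counts of a gene were tested against Poisson sampling over the 4 libraries by a chi-square test with TMM-scaled library sizes, which asks only whether a gene varied more than counting error. A mean count of at least 10 was required, which 67 of 98 members met, 22 with an opposite exon and 45 without. Of these 67, 64 varied beyond counting error at a Benjamini-Hochberg adjusted p under 0.05, and so did 88.2% of all 7752 genes tested, a background that the members' count has to be read against. The 3 that did not pass were Ndufs3 (adjusted p = 0.46), Sdhaf1 (adjusted p = 0.08) and Ndufa6 (adjusted p = 0.18), an accessory subunit with 18, 6, 14 and 13 counts. Without replicate 4 the test called 42 of 54 members, against 76.0% of all genes tested.

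Each library was also set against the other 3 with edgeR's quasi-likelihood test, which counts the spread between libraries as error. These 4 comparisons share libraries and describe libraries, not conditions. No member was called at an adjusted p under 0.05 in any of them, nor by DESeq2, and among all genes called 0% were higher and 0% lower in replicate 1, 0.0129% and 0% in replicate 2, 0% and 0.0387% in replicate 3, and 0% and 0% in replicate 4. At an unadjusted p under 0.05 by edgeR, no member passed in replicate 1, where 0.129% of genes were higher and 0.297% lower. In replicate 2, 2 members were lower, against 2.37% of genes lower and 0.413% higher. In replicate 3, 8 members were lower, against 9.12% of genes lower and 0.245% higher. In replicate 4, 6 members were higher, against 5.5% of genes higher and 3.32% lower. At the same unadjusted threshold DESeq2 gave no member in replicate 1. It gave 3 members lower in replicate 2, against 2.72% of genes lower, 9 lower in replicate 3, against 9.06%, and 4 higher in replicate 4, against 2.83% of genes higher. The biological coefficient of variation fitted by edgeR over all 4 libraries as 1 group was 0.575. Each comparison fitted its own dispersion, which is not given here. A count of 0 does not show that the libraries were alike.

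The median log2 fold change of the 67 members was 0.30, -1.27, -1.002 and 0.97 for replicates 1 to 4, each against the other 3 libraries, beside -0.02, -0.21, -0.24 and 0.05 over all genes tested. An opposite exon was present in 22 of these 67 members and in 3925 of the 7752 genes tested. The part of class in this difference was not tested. Among named members, Cox5a had the largest value in replicate 4, 3.12 ± 0.95, and Atp5b had 1.45 ± 0.54. Here ± gives the absolute log2 fold change divided by the square root of edgeR's F statistic, not a standard error from the fit. The call of 0 rested on which libraries were in the fit. With replicate 1 left out, replicate 4 against replicates 2 and 3 gave 7 of 58 members higher (Atp5a1, Atp5b, Cox5a, Ndufa4, Uqcrc2 and Uqcrh among them) against 1083 of 7292 genes called, or 14.9%. With replicate 2 left out, replicate 3 gave 9 of 72 lower (Atp5a1, Atp5b, Atp5g2, Cox7a2, Ndufa4, Ndufb5, Uqcrc2 and Uqcrh among them) against 741 of 8047 genes called, or 9.21%. With replicate 3 left out, replicate 2 gave 2 of 72 lower (Atp5a1 and Atp5b), against 400 of 8193 genes, or 4.88%. With replicate 4 left out, replicate 1 gave 1 of 54, Atp5b, against 169 of 7334 genes, or 2.30%. Within each fit the members called went in the same direction, whereas for all genes the calls in both directions were counted. The calls among members and among all genes are therefore unlike and are not ranked against each other. In these fits the lone library is assumed to vary like the remaining pair.

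Several complex IV subunits exist as a widely expressed isoform and one restricted to muscle, lung or testis, and 8 such pairs, 1 of them Ndufa4 with Ndufa4l2, were compared per length within each library. The difference in log2(TPM + 1), widely expressed minus restricted, was positive in 4 of 4 libraries for 7 pairs. It averaged 5.22 ± 1.05 (SD, n = 4) for Cox7b minus Cox7b2, 4.61 ± 1.70 for Cox6a1 minus Cox6a2, 4.36 ± 1.01 for Cox6b1 minus Cox6b2 and 3.70 ± 1.57 for Cox4i1 minus Cox4i2. Cox8a minus Cox8b and Cox8a minus Cox8c gave the same 4.24 ± 1.82, since both restricted isoforms had no count, and Ndufa4 minus Ndufa4l2 gave 2.93 ± 2.34. An exact two-sided permutation test by sign flips gave p = 0.13 for each of these 7, the smallest p that 4 libraries allow, adjusted over 8 pairs to 0.143. Where the restricted isoform had no count the difference could not be negative.

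The restricted isoforms had few counts. Cox4i2, the isoform of lung and of cells sensing low oxygen, had 11 counts in replicate 1, or 11.9 TPM, and 0 in the others. Cox6b2, a testis isoform, had 2 counts, in replicate 4. Ndufa4l2, which is known to rise in low oxygen, had counts of 0, 5, 0 and 1. Cox8a, the general isoform of its subunit, had 37.6, 5.56, 5.47 and 76.9 TPM.

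Cox7a was the exception. Cox7a2, the general isoform, had 27.2, 2.41, 1.05 and 49.6 TPM, and Cox7a1, known as the isoform of heart and skeletal muscle, had 30.3, 9.92, 1.86 and 23.1 TPM, from 19, 7, 1 and 10 counts. The difference, Cox7a2 minus Cox7a1, was -0.15, -1.68, -0.48 and 1.07 in replicates 1 to 4, a mean of -0.31 ± 1.13 (exact sign-flip permutation test, p = 0.625, n = 4), and it was positive in 1 of 4 libraries. Without replicate 2 the mean was 0.15. Neither gene has an opposite exon. Of 8 muscle markers, 7 had no count in any library (Acta1, Myh1, Myh4, Mb, Actc1, Myl1 and Tnnt3), and Ckm, which has an opposite exon, had 4, 15, 15 and 0. All 5 brown fat markers had no count. Of 6 testis markers, Prm1 had 8, 8, 7 and 3 counts and the other 5 had none.

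**Figure D4:**
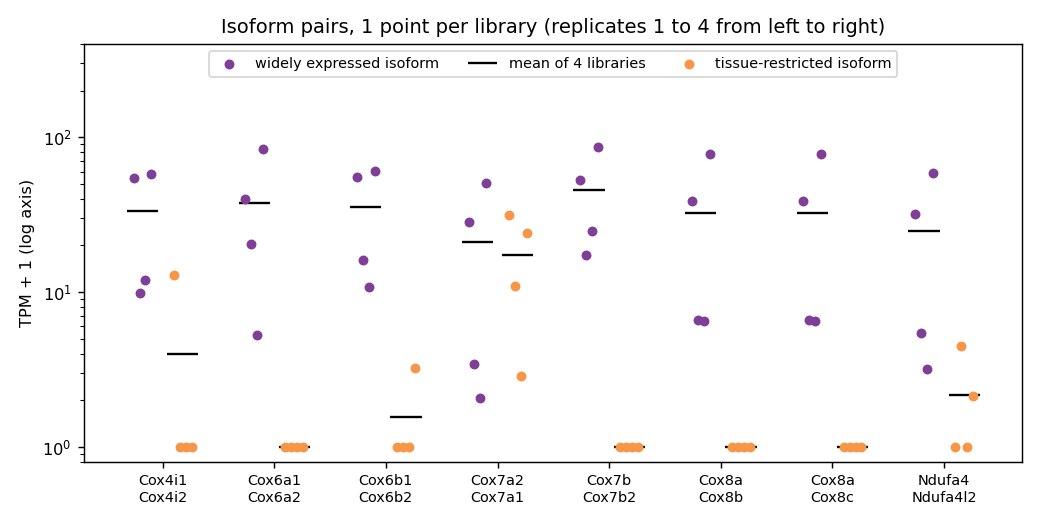
TPM + 1 on a log axis for 8 pairs of a widely expressed isoform (purple, upper name) and its restricted isoform (orange, lower name), 1 point per library with replicates 1 to 4 from left to right and a bar at the mean. The pair Cox7a2 and Cox7a1 overlaps, with means of 20.1 and 16.3 TPM, while 4 of the restricted isoforms lie at 0 TPM in every library.

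The 28 members with an opposite exon formed 32 pairs with genes on the other strand, sharing 4 to 1733 bp of exon. In 16 pairs the genes met head to head, in 10 tail to tail, in 5 the opposite gene lay inside the member and in 1 the member lay inside the opposite gene. The opposite gene had more counts per kb of exon on average in 24 pairs and in all 4 libraries in 21, and the member had more in all 4 libraries in 7. Among the 24 is Cox6a2 with Itgad, which rests on 1 count of Itgad in replicate 3. The same shares over all opposite-strand pairs are not given here, so these numbers are not read as a trait of the members. The strands cannot be compared in RNA terms without the orientation of the kit, so the pairs are given as counts.

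The member averaged far fewer counts than the opposite gene in each of the 10 pairs described next, those of at least 100 bp chosen for having the most abundant opposite genes. The counts of Atpif1 were 64, 12, 13 and 49 by replicate, against 3785, 4627, 3895 and 2373 for Gm12999, whose 485 bp all lie in exon of Atpif1 (chromosome 4, 132530555 to 132533659, mm10). The difference in log2(counts per kb + 1), member minus opposite gene, was -8.55 ± 1.48 (SD, n = 4). Cox5a had 14, 4, 7 and 67 counts, against 3973, 3987, 3088 and 2790 for Gm26631, a difference of -7.51 ± 1.72, over 269 bp at their 3′ ends. Scaled to library totals, Atpif1 had 22.5 ± 17.1 CPM and Cox5a 16.9 ± 23.9 CPM, against 2293 ± 371 CPM for Gm12999 and 2176 ± 43.7 CPM for Gm26631. Relative to its mean, the spread between libraries was larger in the member of both pairs.

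Uqcrc2 had 55, 18, 9 and 98 counts, against 2185, 2201, 1783 and 1359 for Pdzd9, which it meets tail to tail, a difference of -5.98 ± 1.58. Ndufb5 had 13, 6, 0 and 41 counts, against 2000, 2065, 1638 and 1321 for Mrpl47, a protein of the mitochondrial ribosome, with 616 bp shared head to head and a difference of -7.07 ± 1.504. Cox4i1 had 97, 18, 17 and 71 counts, against 1364, 2230, 1564 and 1070 for Emc8, a subunit of the membrane protein complex of the endoplasmic reticulum, a difference of -3.21 ± 1.61 with 154 bp shared. These 3 members had 30.9 ± 32.5, 10.7 ± 14.6 and 32.9 ± 25.6 CPM, higher in replicates 1 and 4, against 1178 ± 77.3 CPM for Pdzd9, 1101 ± 43.9 CPM for Mrpl47 and 972 ± 203 CPM for Emc8, whose relative spread was smaller.

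In the other 5 pairs the difference was -5.48 ± 1.16 for Atp5o, the OSCP subunit that links stalk and head, against D430001F17Rik, and -6.80 ± 2.04 for Ndufb6 against Smim27. It was -4.93 ± 0.46 for Sdhaf1 against E130208F15Rik, which shares 1733 bp of exon with it. It was -6.26 ± 0.94 for Ndufs1, the subunit with the most iron-sulfur clusters, against Ino80dos, and -6.11 ± 1.08 for Ndufab1, the mitochondrial acyl carrier protein, against Gm44986. The sign was negative in 4 of 4 libraries in each of the 10 pairs, a direction that their choice by the abundance of the opposite gene favours, so no test is given.

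**Figure D5:**
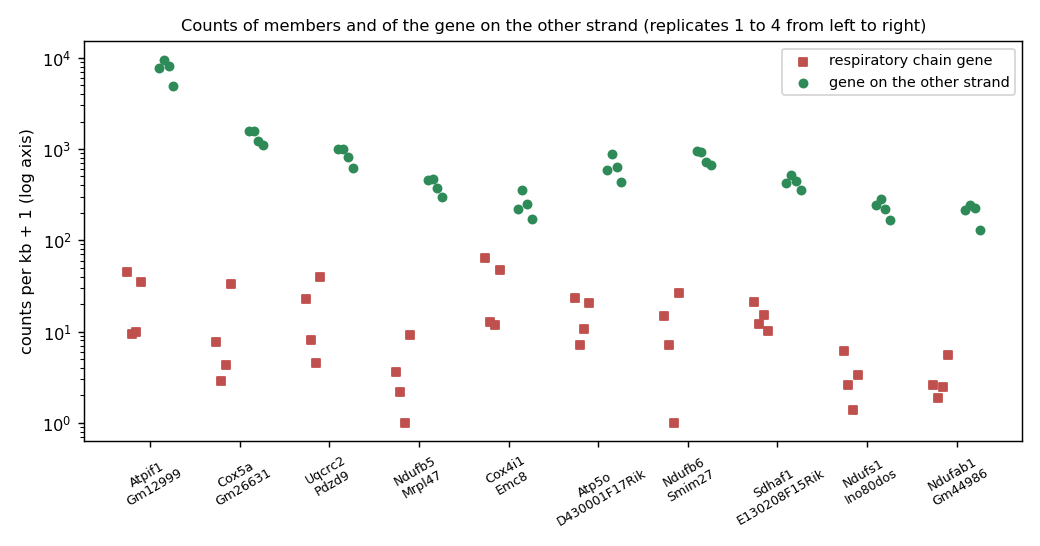
Counts per kb of exon + 1 on a log axis for 10 respiratory chain genes (red squares, upper name) and the gene on their other strand (green circles, lower name), 1 point per library with replicates 1 to 4 from left to right. The opposite gene lies above the member in all 10 pairs and 4 of 4 libraries.

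In other pairs, chosen after their values were seen, the member was the denser one. Atp5f1 had 540, 617, 416 and 426 counts, against 8, 7, 2 and 12 for Wdr77, a partner of arginine methyltransferase Prmt5, with 337 bp shared head to head and a difference of 5.67 ± 0.55. Ndufa2 had 98, 141, 84 and 90 counts, against 13, 15, 13 and 16 for Tmco6, a difference of 4.33 ± 0.31. Cox6c had 136, 253, 129 and 226 counts, against 33, 8, 17 and 30 for Vps13b, a difference of 4.33 ± 0.84. Ndufaf3 had 158, 178, 121 and 125 counts, against 98, 25, 10 and 78 for Impdh2, a difference of 2.57 ± 1.35. Atp5f1 had 314 ± 22.7 CPM and Ndufaf3 91.6 ± 6.61 CPM, against 4.76 ± 3.37 CPM for Wdr77 and 34.2 ± 27.9 CPM for Impdh2, so in these pairs the member had the smaller relative spread, and Impdh2 was higher in replicates 1 and 4.

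Atp5j meets Gabpa head to head, sharing 397 bp of exon between bases 84834925 and 84835543 of chromosome 16 (mm10). The printed Atp5j window lies within these bounds. Gabpa encodes the DNA-binding subunit of GABP, the ETS factor named above. Atp5j had 207, 225, 146 and 163 counts, against 593, 673, 562 and 374 for Gabpa, a difference of -0.69 ± 0.30, or 117 ± 11.4 CPM against 344 ± 40.8 CPM. Ndufs3 had 97, 76, 61 and 58 counts, against 447, 530, 408 and 345 for Kbtbd4, a difference of -2.02 ± 0.26.

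Sequence copies could also affect counts. An annotated pseudogene with at least 98% identity over at least 200 bp was found for 12 members, whose values are uncertain to the extent that reads were split. Over all libraries their 16 copies held 21 counts, 12 in the copy of Atp5h, 4 in those of Ndufab1, 3 in that of Ndufa12 and 2 in that of Ndufs5. The copies of the other 8, Atp5f1, Atp5g1, Atp5g2, Atp5l, Cox7a2l, Ndufb4, Ndufs3 and Uqcrb, had no count. Of the 11 pseudogenes whose symbol fits the rule and that were left out, Ndufab1-ps had 4 counts, in replicate 2, and the other 10 had none.

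Genes that serve the same pathway under other symbols were set beside the members, whose median was 11.2 ± 9.21 TPM. The 22 assembly and copper-delivery factors of complex IV had a median of 3.48 ± 2.61 TPM, the 6 assembly factors of complex III 8.38 ± 2.81 TPM, 8 further assembly factors of complex I 2.84 ± 3.09 TPM and 3 of complex V 3.39 ± 3.93 TPM. The 17 genes of cytochrome c and coenzyme Q synthesis had 2.05 ± 1.36 TPM and 13 genes of the TCA cycle 7.18 ± 5.28 TPM. Of 11 regulators of mitochondrial biogenesis, which had a median of 1.99 ± 1.08 TPM, Ppargc1a and Tfb2m had no count. Among the genes of each list that met the count minimum, 9 of 11, 1 of 4, 1 of 2, 0 of 0, 4 of 6, 11 of 12 and 5 of 6 in the order given varied beyond counting error, and edgeR called none in any library.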

How the data were processed

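The values used were the authors' deposited raw counts of paired fragments per gene. Per the file headers, featureCounts v1.4.6-p4 made them from stranded STAR alignments to mm10, over exons of GENCODE M13, with both ends required to map and the strand option at 1. For STAR no version is named in the headers or labels. Symbols came from GENCODE M21 by identifier for 50376 of 50600 genes. TPM and CPM were computed from the counts, exon lengths and library totals in the files. Shared exons of at least 1 bp on the other strand were found with bedtools 2.31.1, and near-identical pseudogenes with BLAST 2.17.0 against transcripts of the reference. Promoter windows were taken from RefSeq (GRCm38.p6) by symbol or synonym.

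The 4 libraries form 1 group, so genes were compared within libraries and libraries with each other. Genes averaging 10 counts or more were tested against Poisson sampling by chi-square with TMM-scaled sizes, and by the quasi-likelihood test of edgeR 4.0.16 for each library against the other 3, both with Benjamini-Hochberg adjustment over 7752 genes at 0.05. Single pairs had exact sign-flip tests. The tests were tried on simulated data. R 4.3.3 and Python 3.11.15 were used. Alternatives were DESeq2 1.42.0, median-of-ratios factors, no count minimum, a pseudocount of 0.1 in place of 1, FPKM, members averaging 1 TPM or more, members without an opposite exon, at least 100 bp shared, another denominator for the share of counts, and leaving out each library.

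Members, lists and tests were chosen with earlier results of these data known. Members named were, per complex, the 3 of highest mean TPM without an opposite exon and the 2 with one, all isoform pairs, Atpif1, the 5 of widest range among members averaging 10 counts or more, and those with no count, plus the 10 most abundant opposite genes sharing at least 100 bp. Other genes were named after their values were seen. Some results of this rule are not reported here.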

Additional observations from a re-analysis of the deposited data

Results flagged for a closer look

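Each of the 44 named members with a count was checked for 1 library lying far from the other 3, as the gap to the nearest value over the whole range, against Dixon's 95% limit for 4 values. Chance flags about 1 in 20 groups of independent normal values, a rate that does not hold here, and 4 members passed. A gene counted in 1 library only always passes, and Cox5a had been named for its wide range. Over all 93 members with a count 9 passed, or 9.68%, against 20.7% of the 12172 nuclear protein-coding genes with a count. Among genes counted in more than 1 library 4 of 88 members passed, or 4.55%, against 8.81% of 10581 genes. Cox5a stood apart in replicate 4, at 39.3 TPM, against 1.44 to 5.69 TPM in the other libraries. Cox4i2 stood apart in replicate 1, at 11.9 TPM, Cox6b2 in replicate 4, at 2.23 TPM, and Sdhaf4 in replicate 4, at 7.06 TPM, each with no count in the other 3 libraries and resting on 11, 2 and 5 counts.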

How the results depend on the processing

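No paired analysis was possible because all 4 libraries belong to 1 group. Leaving out each library in turn, the number of members that varied beyond counting error was 42 to 60, against 64 of 67 with all 4 libraries. It was 51 of 58, 53 of 72, 60 of 72 and 42 of 54 without replicates 1 to 4, while 81.1%, 80.2%, 80.4% and 76.0% of all genes tested did so. It was 63 of 67 with median-of-ratios factors, against 88.4% of genes, and 79 of 93 with no count minimum, against 70.3%. The number of members called by edgeR in 1 library against the rest, 0 with all libraries, was 0 to 1 for replicate 1, 0 to 2 for replicate 2, 0 to 9 for replicate 3 and 0 to 7 for replicate 4; it stayed 0 with DESeq2, median-of-ratios factors and no count minimum. The mean difference of Cox7a2 minus Cox7a1 ran from -0.77 to 0.15 on the log2 scale and turned positive, to 0.15, without replicate 2. The share held by the 70 members without an opposite exon had a mean of 0.105% of all counts. It was 0.703% when they were set against the counts of all such genes. The other isoform differences kept their direction under the other pseudocount, FPKM and each library left out, and the complex medians moved by less than 1 SD under their alternatives. Mean TPM of 21 named members moved by over 1.5 times without replicate 4, of 2 (Cox4i2 and Ndufaf1) without replicate 1 and of 1 (Ndufa4l2) without replicate 2. The number of libraries, their depth and an edgeR biological coefficient of variation of 0.575 over all 4 libraries as 1 group limit what can be called.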
